A study of Mus musculus with 27 samples.

Results

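The 10 genes described here belong to the MHC class I antigen presentation machinery and were followed across a study of Toll-like receptor (TLR) tolerance in mouse bone marrow-derived macrophages (BMDMs). The 10 members are the class I heavy chains H2-K1 and H2-D1, their light chain B2m, the peptide transporter subunits Tap1 and Tap2, the loading chaperone Tapbp, the immunoproteasome subunits Psmb8, Psmb9 and Psmb10, and the class I transactivator Nlrc5. Their probes were taken by name, as those whose gene name on the array equals one of these symbols. Each of the 10 names was found, with 13 probes among the 55681 probes of the deposited table. H2-K1, Psmb9 and Nlrc5 have 2 probes each, and the probe with the higher mean stands for the gene unless the other is named.

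MHC class I molecules show peptides from inside the cell to CD8+ T cells. Proteasomes cut cytosolic proteins into peptides, the TAP transporter carries these into the endoplasmic reticulum, tapasin (Tapbp) holds empty class I molecules at the transporter, and the loaded complex of heavy chain and beta-2-microglobulin leaves for the cell surface. Interferons induce most of these genes, exchange the catalytic subunits of the proteasome for the immunoproteasome subunits, and raise the transactivator NLRC5, which acts at the SXY module of class I promoters.

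All BMDMs were grown from marrow of female C57BL/6 mice aged 6 to 8 weeks, for 7 days in L929-conditioned medium, so no genotype differs between groups. The study's methods state in one place that each culture came from pooled marrow of 3 mice, and in another that each replicate came from its own mouse. Naïve BMDMs were compared with BMDMs given a ligand for 4 h (acute) and with BMDMs given the same ligand for 24 h, washed, rested for 1 h and given it again for 4 h (re-stimulated). The ligands were LPS at 100 ng/ml (TLR4), Pam3CSK4 at 100 ng/ml (TLR1/2), Poly(I:C) at 10 µg/ml (TLR3) and CpG DNA (TLR9), whose dose is 100 µM in the sample labels and 1 µM in the methods. RNA was hybridised to 1-colour Agilent arrays. Of 27 arrays, 25 in 9 groups have deposited log2 values: 3 per group, except re-stimulated LPS and acute Pam3CSK4 with 2 each.

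The arrays do not all stand on equal ground. All groups but acute LPS share 3 slides, 1 per replicate number, while acute LPS was hybridised to 3 further slides with other scan days. Slide and acute LPS treatment therefore cannot be told apart. Naïve replicate 3 stood apart, with 74.9% of probes well above background against 43.1% to 55.0% on the other 24 arrays. The 8 macrophage markers measured were well above background on all 25 arrays. The neutrophil genes Ly6g and Ngp were well above background on all 15 shared-slide arrays of replicates 1 and 2 (Ly6g at 8.74 to 12.78), on 1 and 2 of the 7 arrays of replicate 3 (Ly6g at 1.82 to 6.42) and on 0 of 3 acute LPS arrays (Ly6g at 2.96 to 3.78), so the level of neutrophil genes also differed between these cultures. Elane, another neutrophil gene, was at 11.08 to 12.73 on all 25. In bulk samples of this kind, fewer cells of a type and less RNA per cell cannot be told apart.

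Of the members, 7 lie on chromosome 17 in or beside the mouse MHC, and the probes of Psmb9, Tap1, Psmb8 and Tap2 fall within 34 kb of each other (chr17:34319174-34353175, mm9, from the array file). Psmb10 and Nlrc5 lie on chromosome 8 and B2m on chromosome 2. The probe sequences of H2-K1 and H2-D1 were compared with those of other class I genes, in a set of 37 class I probes that holds their own. The main H2-K1 probe (chr17:34133055-34133114, minus strand) shares at most 26 of its 60 bases with a probe of another gene, and the H2-D1 probe (chr17:35403886-35403945) at most 27. The second H2-K1 probe shares 39 of 60 with a probe of H2-T23, so its signal is less certainly from H2-K1. Probes were compared only with probes and not with whole transcripts. A match of any of them elsewhere in another class I transcript was therefore not tested.

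Promoters of members with small and large changes are shown first, so that the values can be read beside them. RefSeq windows from 250 bases before to 50 bases after a start site (GRCm38.p6) were held for 8 of the 10 members, without Tap2 and Nlrc5. The first 250 bases are printed for B2m (chr2:122147437-122147686, plus strand), which moved least, Tap1 (chr17:34187306-34187555, plus strand), which moved most after Nlrc5, and the heavy chains H2-K1 (chr17:34000334-34000583, minus strand) and H2-D1 (chr17:35262844-35263093, plus strand), whose windows are alike in sequence. Capitals mark 3 motifs searched on both strands: the interferon-stimulated response element (ISRE) as 2 copies of GAAA with 2 bases between, the core TGACG bound by CREB and ATF factors, and CCAAT, with its reverse ATTGG, bound by NF-Y.

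B2m: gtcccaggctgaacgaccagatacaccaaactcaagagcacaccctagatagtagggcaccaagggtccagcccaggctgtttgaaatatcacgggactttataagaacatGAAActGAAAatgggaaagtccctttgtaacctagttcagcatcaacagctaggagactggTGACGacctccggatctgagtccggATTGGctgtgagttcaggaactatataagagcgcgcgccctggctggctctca

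Tap1: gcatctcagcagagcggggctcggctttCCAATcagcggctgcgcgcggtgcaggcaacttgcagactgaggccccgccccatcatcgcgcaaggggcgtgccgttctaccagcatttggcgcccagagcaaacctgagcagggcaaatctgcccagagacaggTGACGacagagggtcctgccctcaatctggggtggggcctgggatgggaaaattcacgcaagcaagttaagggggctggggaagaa

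H2-K1: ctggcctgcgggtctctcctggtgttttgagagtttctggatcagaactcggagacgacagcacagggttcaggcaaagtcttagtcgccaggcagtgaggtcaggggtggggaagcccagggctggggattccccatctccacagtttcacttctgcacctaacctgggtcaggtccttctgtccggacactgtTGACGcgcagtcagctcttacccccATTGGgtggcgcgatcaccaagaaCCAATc

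H2-D1: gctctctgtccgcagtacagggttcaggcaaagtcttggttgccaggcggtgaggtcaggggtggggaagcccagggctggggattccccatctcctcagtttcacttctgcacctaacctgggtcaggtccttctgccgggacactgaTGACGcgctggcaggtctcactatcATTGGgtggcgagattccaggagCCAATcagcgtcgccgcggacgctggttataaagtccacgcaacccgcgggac

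The ISRE letters were found in 1 member, B2m (from position -139 relative to its start site), and in 3.44% of all 32851 promoter windows. Only these exact letters were searched, and other forms or spacings of the element were not. The search therefore does not show that H2-K1, H2-D1 or any other member lacks such an element. CCAAT was in 6 of the 8 members and in 37.4% of all windows, and TGACG in 5 of 8 and in 20.8%. In H2-K1, H2-D1 and B2m the TGACG and ATTGG letters stand close together in the order of the X2 and Y boxes of an SXY module. Psmb8 and Psmb10 held none of the 3 motifs. The H2-K1 and H2-D1 windows were identical at 180 of 254 aligned bases (70.9%), with a longest shared run of 47. The windows of Tap1 and Psmb9 cover the same 275 bases on opposite strands, since the start sites of this divergent pair lie 225 bases apart. Their CCAAT and TGACG matches are the same sites in this shared DNA, and the counts above hold them for each gene. A match to these letters is a description of the sequence, not evidence of a bound factor.

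**Figure D1:**
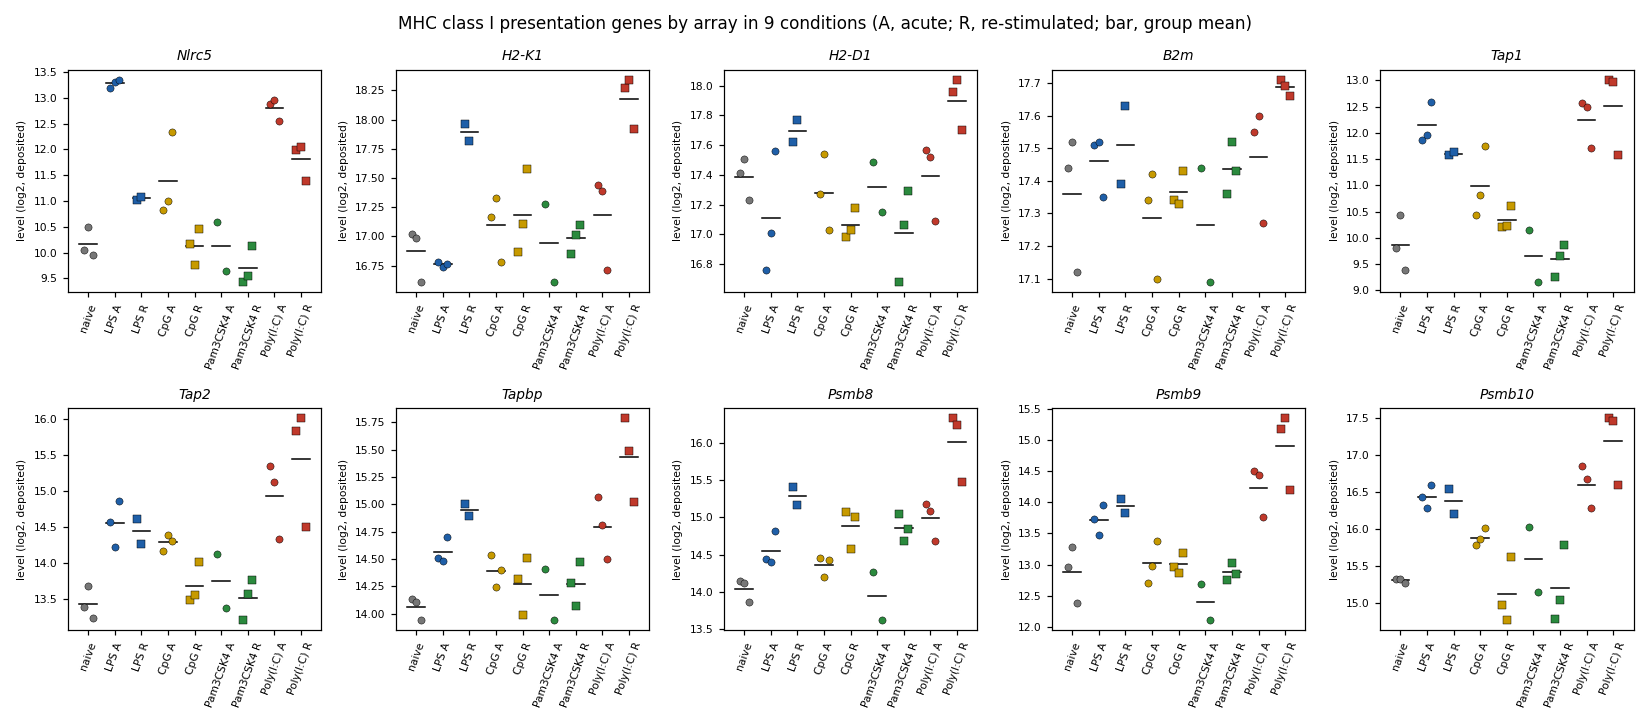
Log2 level (deposited values, no further scaling) of the 10 members on each of 25 arrays, by condition; points are arrays and short lines group means. Re-stimulated Poly(I:C) holds the highest group mean for 9 members, and acute LPS for Nlrc5.

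Across the 9 groups the members differed greatly in how far they moved. The distance from the lowest to the highest group mean was 3.59 log2 units for Nlrc5, 2.92 for Tap1, 2.50 for Psmb9, 2.07 for Psmb8, 2.06 for Psmb10, 2.01 for Tap2, 1.41 for H2-K1, 1.38 for Tapbp, 0.89 for H2-D1 and 0.42 for B2m. Re-stimulated Poly(I:C) was the highest group for 9 of the 10 members, and among 30814 detected probes it was highest for 8.99%. The exception was Nlrc5, which was highest in acute LPS, the highest group for 22.6% of detected probes. The transporter and immunoproteasome subunits each spanned more than H2-K1, H2-D1 or B2m.

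Nlrc5, the transactivator of class I genes, was the member most raised by a single exposure. Its probe (chr8:97051105-97051164) read 10.05, 10.49 and 9.96 on the naïve arrays, 13.19, 13.31 and 13.35 after acute LPS, and 12.88, 12.95 and 12.55 after acute Poly(I:C). The acute LPS arrays all lay above the acute Poly(I:C) arrays, and these above all naïve arrays. Nlrc5 rose by 3.12 log2 units after acute LPS (8.69-fold, SE 0.21, limma adjusted p = 0.000618) and by 2.63 after acute Poly(I:C) (6.20-fold, SE 0.22, adjusted p = 0.00509). Its second probe (chr8:97030478-97030624), a much dimmer one, rose by 3.31 (adjusted p = 0.0107) and by 2.58 (adjusted p = 0.0285).

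On re-stimulation the Nlrc5 level was lower than after the single exposure. It read 11.02 and 11.08 in re-stimulated LPS, below every acute LPS array, a fall by 2.23 log2 units (SE 0.19, adjusted p = 0.000855), with the slide difference named above. The second probe fell by 1.82 (adjusted p = 0.0403). In re-stimulated Poly(I:C) it read 11.99, 12.05 and 11.39, below all 3 acute Poly(I:C) arrays on the same slides. That difference of -0.98 (SE 0.24) missed the threshold without the replicate block (adjusted p = 0.0693) and passed it with the block (adjusted p = 0.0455; 0.0208 to 0.204 over 16 alternatives), and same-numbered arrays on a shared slide did deviate together. Both re-stimulated groups still lay above every naïve array: Nlrc5 rose by 1.65 in re-stimulated Poly(I:C) against naïve (SE 0.26, adjusted p = 0.0213), and was 0.89 higher in re-stimulated LPS (adjusted p = 0.0959).

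CpG and Pam3CSK4 gave smaller Nlrc5 values. Acute CpG read 10.82, 10.99 and 12.34, with replicate 3 well above the other two, and was 1.22 higher than naïve (SE 0.44, adjusted p = 0.17). Acute Pam3CSK4 read 10.60 and 9.65 and overlapped naïve (difference -0.04, 95% interval -0.99 to 0.91). Re-stimulated CpG at 9.76 to 10.45 and re-stimulated Pam3CSK4 at 9.43 to 10.12 also overlapped the naïve arrays.

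The heavy chain H2-K1, a classical class I molecule, showed the reverse order of acute and repeated exposure. It read 17.02, 16.99 and 16.61 in naïve BMDMs, 16.78, 16.74 and 16.76 after acute LPS, and 17.96 and 17.82 on LPS re-stimulation. Acute LPS lay inside the naïve range, and both re-stimulated arrays lay above it. H2-K1 was 1.13 higher in re-stimulated than in acute LPS (2.18-fold, SE 0.19, adjusted p = 0.0066), although its second probe differed by 0.66 and did not pass (adjusted p = 0.0802).

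With Poly(I:C), H2-K1 read 17.44, 17.39 and 16.71 acutely and 18.27, 18.34 and 17.92 on re-stimulation. The re-stimulated arrays lay above all acute and all naïve arrays. Against naïve H2-K1 rose by 1.30 on re-stimulation (2.47-fold, SE 0.21, adjusted p = 0.0222; second probe 1.23, adjusted p = 0.0502) and was 0.31 higher acutely (adjusted p = 0.561). The step from acute to re-stimulated Poly(I:C) was 1.00 (SE 0.26, adjusted p = 0.0777), and it passed with the replicate block (adjusted p = 0.0464; 0.00278 to 0.227 over 16 alternatives).

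H2-D1, the other classical heavy chain, moved less, and no main comparison of 2 groups called it. Its highest group mean was again that of re-stimulated Poly(I:C), with arrays at 17.96, 18.04 and 17.70 that overlapped re-stimulated LPS (17.62 and 17.77) and lay above the naïve arrays at 17.41, 17.51 and 17.23 (difference 0.52, SE 0.18, adjusted p = 0.135). Acute LPS arrays ran from 16.76 to 17.56 and overlapped naïve.

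B2m, the light chain shared by class I molecules, was nearly level. Its naïve arrays read 17.44, 17.52 and 17.12 and the re-stimulated Poly(I:C) arrays 17.71, 17.69 and 17.66. The latter lay above every other array of all groups, yet the difference of 0.33 (95% interval -0.11 to 0.76) did not pass (adjusted p = 0.292). Both H2-D1 and B2m are bright probes, and no member spot was saturated.

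Tap1, a subunit of the peptide transporter, rose with both ligands that raised Nlrc5. It read 9.80, 10.43 and 9.38 in naïve BMDMs, 11.87, 11.96 and 12.59 after acute LPS and 12.56, 12.49 and 11.71 after acute Poly(I:C). Neither acute group overlapped naïve. The rise was 2.27 log2 units after LPS (4.82-fold, SE 0.34, adjusted p = 0.00598) and 2.38 after Poly(I:C) (5.21-fold, SE 0.36, adjusted p = 0.0235).

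From acute to re-stimulated, Tap1 did not fall past the threshold. Re-stimulated LPS read 11.57 and 11.64, which was -0.53 against acute LPS (adjusted p = 0.175), and re-stimulated Poly(I:C) read 13.01, 12.96 and 11.58, which was 0.27 against acute (95% interval -0.83 to 1.36). Against naïve, Tap1 rose by 2.65 in re-stimulated Poly(I:C) (6.27-fold, SE 0.48, adjusted p = 0.0282) and was 1.74 higher in re-stimulated LPS (adjusted p = 0.0594). With CpG it was 1.13 higher acutely (adjusted p = 0.188), where replicate 3 at 11.74 stood above 10.43 and 10.82.

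Tap2, the partner of Tap1 in the transporter, kept the same order at smaller size. Naïve arrays read 13.39, 13.69 and 13.24, acute LPS 14.57, 14.22 and 14.86, acute Poly(I:C) 15.34, 15.12 and 14.34, and re-stimulated Poly(I:C) 15.83, 16.01 and 14.50. All 9 stimulated arrays lay above the naïve ones, and replicate 3 was the lowest of both Poly(I:C) groups. Tap2 rose by 1.11 after acute LPS (adjusted p = 0.0192), by 1.49 after acute Poly(I:C) (adjusted p = 0.0481) and by 2.01 in re-stimulated Poly(I:C) (adjusted p = 0.0422). With the replicate block neither Poly(I:C) difference passed (adjusted p = 0.0555 acutely and 0.0523 on re-stimulation), and the acute LPS call was also lost. Over 16 alternatives the adjusted p of the Poly(I:C) differences ran from 0.00199 to 0.189 acutely and from 0.000105 to 0.141 on re-stimulation.

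Tapbp, the chaperone that edits peptides on class I, was called in 1 comparison of 2 groups. Re-stimulated Poly(I:C) read 15.79, 15.49 and 15.02 against 14.13, 14.11 and 13.94 in naïve BMDMs, with no overlap, a rise by 1.38 (2.60-fold, SE 0.24, adjusted p = 0.0262). Re-stimulated LPS, with a mean of 14.95 and its lower array at 14.89, was also above every naïve array (difference 0.89, adjusted p = 0.0602).

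Psmb8, the LMP7 subunit of the immunoproteasome, was the member that re-stimulation raised with most ligands. Naïve arrays read 14.14, 14.12 and 13.87. Re-stimulated arrays read 15.41 and 15.17 with LPS, 15.07, 14.57 and 15.01 with CpG, 15.05, 14.68 and 14.84 with Pam3CSK4, and 16.33, 16.23 and 15.47 with Poly(I:C). None of these overlapped naïve. Psmb8 rose by 1.25 with LPS (2.37-fold, adjusted p = 0.0404), by 0.84 with CpG (1.79-fold, adjusted p = 0.047) and by 1.97 with Poly(I:C) (3.91-fold, adjusted p = 0.0161), and was 0.81 higher with Pam3CSK4 (adjusted p = 0.0653). With the replicate block the CpG value did not pass (adjusted p = 0.0872; 0.00347 to 0.135 over 16 alternatives), nor without any single array but naïve replicate 3. These comparisons share the naïve arrays.

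After a single exposure Psmb8 was closer to naïve. It was 0.51 higher after acute LPS (adjusted p = 0.112), 0.94 higher after acute Poly(I:C) (adjusted p = 0.0543) and -0.10 after acute Pam3CSK4 (adjusted p = 0.914). From acute to re-stimulated LPS it rose by 0.74 (SE 0.23, adjusted p = 0.0472), which did not pass without acute LPS replicate 1 or 2 or either re-stimulated array. From acute to re-stimulated Poly(I:C) the difference was 1.03 (adjusted p = 0.091), and it passed with the replicate block (adjusted p = 0.0462; 0.00132 to 0.254 over 16 alternatives).

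Psmb10, the MECL-1 subunit, rose after single exposure as well. It read 15.32, 15.33 and 15.27 in naïve BMDMs, 16.44, 16.29 and 16.59 after acute LPS, and 16.85, 16.67 and 16.28 after acute Poly(I:C), with no overlap. The rises were 1.14 (2.20-fold, adjusted p = 0.0066) and 1.30 (2.46-fold, adjusted p = 0.0235). On re-stimulation it read 16.54 and 16.21 with LPS (1.07 above naïve, adjusted p = 0.0491) and 17.50, 17.46 and 16.59 with Poly(I:C) (1.88 above naïve, 3.68-fold, adjusted p = 0.0189).

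Psmb9, the LMP2 subunit encoded back to back with Tap1, was called in 1 comparison with naïve BMDMs by its main probe (chr17:34319174-34319233). It read 12.96, 13.29 and 12.38 there and 15.17, 15.35 and 14.19 in re-stimulated Poly(I:C), a rise by 2.02 (4.06-fold, SE 0.39, adjusted p = 0.0338). After acute Poly(I:C) it read 14.50, 14.44 and 13.76, all above naïve (difference 1.35, adjusted p = 0.0707), and the difference passed with the replicate block (adjusted p = 0.0383; 0.00137 to 0.242 over 16 alternatives). The second Psmb9 probe (chr17:34322762-34322821) was dim, well above background on 16 of 25 arrays, and the probes disagreed on re-stimulation. From acute to re-stimulated LPS the second probe fell by 1.86 (adjusted p = 0.015) where the main probe differed by 0.22 (adjusted p = 0.48). With Poly(I:C) the mean of the main probe went from 14.23 acutely to 14.90 on re-stimulation, and that of the second probe from 6.92 to 6.06. Psmb9 is therefore uncertain from acute to re-stimulated with both ligands.

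**Figure D2:**
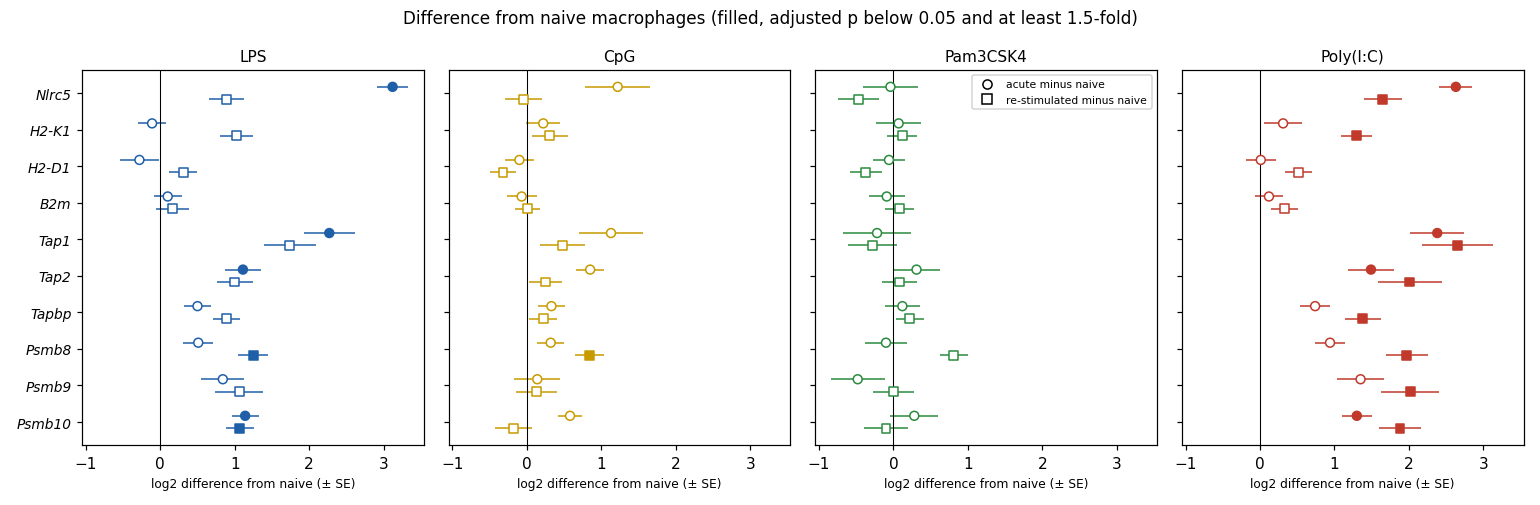
Difference from naïve BMDMs in log2 units (± SE of the limma fit) for the 10 members after acute stimulation and on re-stimulation with each ligand; filled points passed an adjusted p of 0.05 and 1.5-fold. Filled points are seen with LPS and Poly(I:C), and for Psmb8 with re-stimulated CpG; every comparison uses the same 3 naïve arrays.

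Counted over the set, in fits without the replicate block, acute LPS raised 4 of the 10 members (Nlrc5, Tap1, Psmb10 and Tap2) and lowered 0. Of all probes tested there, 13.2% were called higher and 26.5% in either direction. The median member difference was 0.67 and that of all probes -0.01. Acute Poly(I:C) raised the same 4 genes, with 3.8% of all probes called higher and 6.03% in either direction, a median member difference of 1.12 and an all-probe median of -0.10. Acute CpG called 0 members in limma, against 5.72% of probes in either direction, although 4 members had an unadjusted p under 0.05. Acute Pam3CSK4 called 0 members and 0% of all probes, with 0 members at an unadjusted p under 0.05 and differences of -0.48 to 0.31. With 2 acute Pam3CSK4 arrays, the intervals allow a change of about 1 log2 unit for Nlrc5 and Tap1 (-1.40 to 0.96 for Tap1).

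On re-stimulation against naïve, Poly(I:C) raised 8 of 10 members, all but H2-D1 and B2m, where 4.79% of all probes were called higher and 9.03% in either direction. The median member difference was 1.76 and the all-probe median -0.04. Re-stimulated LPS raised Psmb8 and Psmb10, 2 of 10, with 3.27% of probes called higher and 5.66% in either direction, and all 10 members were higher by group mean. Of the 10, 8 had an unadjusted p under 0.05. Re-stimulated CpG raised 1 member, Psmb8, where 6.65% of probes were called higher and 13.1% in either direction, so that its share of the members is near the background. Re-stimulated Pam3CSK4 called 0 members in limma against 5.36% of probes, with 1 member, Psmb8, at an unadjusted p under 0.05.

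These counts depended on single arrays more than the levels did. In re-stimulated Poly(I:C) against naïve, 0 members passed without naïve replicate 1, naïve replicate 2, or Poly(I:C) replicate 1 or 2, while the median difference stayed between 1.63 and 1.85, and over all probes the number called fell from 2565 to between 360 and 559. Without naïve replicate 3, 7 members passed, and without Poly(I:C) replicate 3, 8 passed, and the shares of all probes for these fits are not given. For re-stimulated LPS, 7 members passed without naïve replicate 3, where 6461 of 25802 probes were called, against 1581 of 27915 in the main fit. Without naïve replicate 1 or 2, 0 members passed, where 133 and 253 probes were called. For acute Poly(I:C), 1 member passed without naïve replicate 1 or Poly(I:C) replicate 1 or 2, 2 without naïve replicate 2, 3 without naïve replicate 3 and 6 without Poly(I:C) replicate 3. In the last of these fits 2641 of 28107 probes were called, against 1713 of 28426 in the main fit. For acute LPS, 3 members passed without naïve replicate 1 or LPS replicate 1, where Tap2 was lost, and 4 without any other array. Nlrc5 passed for acute LPS and for acute Poly(I:C) in each of the 16 alternatives tried.

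Within slides the re-stimulated Poly(I:C) differences kept their sign for every member. On each of the 3 shared slides all 10 members were higher in re-stimulated Poly(I:C) than in naïve BMDMs, with medians of 2.06, 1.81 and 1.31. Replicate 3 was the lowest of the 3 re-stimulated Poly(I:C) arrays for all 10 members, by 0.03 to 1.38, and still lay above every naïve array for all 10. The shares of all probes for these counts are not given, and the all-probe median of this comparison was -0.04. Ly6g and Ngp were lower on every replicate 3 array than on any replicate 1 or 2 array of the shared slides. Ly6g, whose protein marks neutrophils, also moved with the members: on the 3 slides it was 3.38, 3.18 and 3.88 higher in re-stimulated Poly(I:C) than in naïve, and on 2 slides 2.76 and 3.17 higher in re-stimulated LPS, against -0.17 to 1.27 for re-stimulated CpG and -0.16 to 0.42 for re-stimulated Pam3CSK4. The other 3 neutrophil genes did not share this: in re-stimulated Poly(I:C) Elane was at -0.52, -0.08 and -0.71 from naïve, Mpo at 0.04, -0.70 and 1.39, and Ngp at 0.27, 0.81 and -3.83. The summed level of all 4 ran from 11.19 to 13.92 in re-stimulated Poly(I:C), 12.86 to 13.81 in re-stimulated LPS and 11.88 to 13.11 in naïve BMDMs. With replicates 1 and 2 only, the arrays on which Ly6g and Ngp were high, 8 members were called. The share of all probes for this fit is not given, so this count has no background. In acute Poly(I:C) against naïve the same subset called 6744 of 26135 probes, against 1713 of 28426 in the main fit. The part of the neutrophil genes in the result was not tested.

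**Figure D3:**
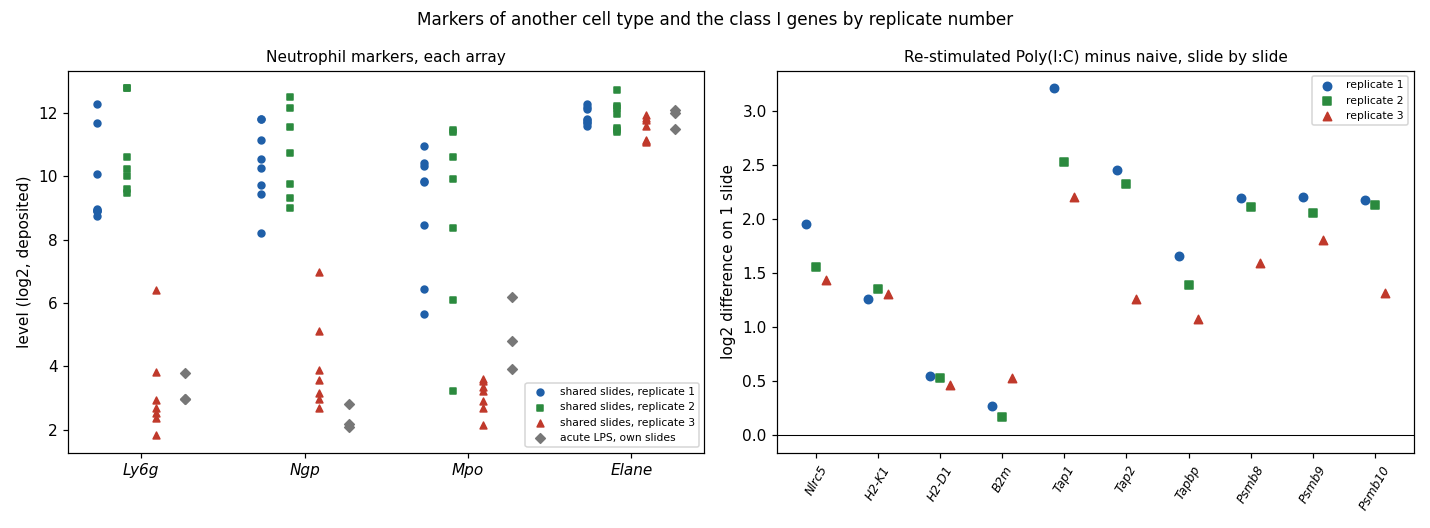
Log2 levels of the neutrophil genes Ly6g, Ngp, Mpo and Elane by array, and the difference of re-stimulated Poly(I:C) from naïve for each member on each of the 3 shared slides. Ly6g, Ngp and Mpo are low on replicate 3 and on acute LPS arrays, and every member's difference is above 0 on each slide.

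From acute to re-stimulated LPS and Poly(I:C), Nlrc5 and H2-K1, a gene it is known to act on, had differences of opposite sign. With LPS, Nlrc5 fell while H2-K1 and Psmb8 rose, so 3 of 10 members were called, against 34.2% of all probes in either direction (17.2% higher and 17% lower). This share of the members is near the background, and the comparison carries the slide difference of acute LPS. Nlrc5 and H2-K1 were called in each of 14 alternatives and Psmb8 in 7. With Poly(I:C) the same 3 genes had the same signs and 0 of 10 members passed, against 4.93% of probes, with 4 members at an unadjusted p under 0.05. With the replicate block these 3 passed, where 1748 of 27139 probes were called. With replicates 1 and 2 only, 6 members passed, 5 higher and 1 lower, where 6566 of 25537 probes were called. With CpG 0 members passed against 3.56% of probes (4 at an unadjusted p under 0.05), and with Pam3CSK4 0 members against 0% of probes (1 at an unadjusted p under 0.05). Nlrc5 was -1.26 from acute to re-stimulated CpG (adjusted p = 0.161) and -0.43 with Pam3CSK4 (adjusted p = 0.681), where H2-K1 was 0.10 (adjusted p = 0.865) and 0.04 (adjusted p = 0.968).

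Over the 9 group means Nlrc5 followed Tap1 closely (r = 0.89), then Tap2 and Psmb10 (0.79 each), Psmb9 (0.68), Tapbp (0.55), B2m (0.43), Psmb8 (0.29), H2-D1 (0.22) and H2-K1 (0.10). Psmb8 and H2-K1 followed each other at 0.87. These 9 points share arrays and slides, and the values describe the order of the levels.

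Differences between ligands were fitted directly. After a single exposure, Poly(I:C) exceeded Pam3CSK4 in 4 of 10 members, with 4.84% of probes called higher and 7.81% in either direction. Nlrc5 differed by 2.67 (SE 0.38, adjusted p = 0.000171), Tap1 by 2.60 (SE 0.45, adjusted p = 0.00108), Psmb9 by 1.83 (SE 0.33, adjusted p = 0.00142) and Psmb8 by 1.04 (SE 0.26, adjusted p = 0.0169). The Psmb8 difference did not pass without Pam3CSK4 replicate 3 or without Poly(I:C) replicate 1 or 2, and the other 3 passed without any single array. Poly(I:C) exceeded CpG in 2 of 10, against 2.95% of probes called higher and 4.82% in either direction: Nlrc5 by 1.41 (95% interval 0.71 to 2.12, adjusted p = 0.0192) and Psmb9 by 1.21 (0.59 to 1.83, adjusted p = 0.0222). Neither call held without replicate 1 or 2 of either group. Acute CpG and acute Pam3CSK4 did not differ past the threshold for any member (0 of 10 against 0.0433% of probes, with 2 members at an unadjusted p under 0.05), and the intervals for Nlrc5 (0.47 to 2.05) and Tap1 (0.39 to 2.30) do not show the ligands to act alike.

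Re-stimulated LPS lay below re-stimulated Poly(I:C) in the mean of all 10 members, by -0.17 for B2m to -1.01 for Tap2, and 0 passed the test against 2.02% of probes (5 had an unadjusted p under 0.05). Without Poly(I:C) replicate 3, 3 members passed. For Psmb9 the interval of the difference was -1.66 to -0.27 and for H2-K1 -0.83 to 0.26. The signed change from acute to re-stimulated was more positive with Poly(I:C) than with CpG for all 10 members, whatever the size of each change, by 0.13 for B2m to 1.34 for Psmb10, and again 0 passed, against 0.0396% of probes, with 5 at an unadjusted p under 0.05. Without re-stimulated Poly(I:C) replicate 3, 2 passed.

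Genes around these members were read from 5 lists. Beside the list counts against naïve, the shares of all probes called higher were 13.2% in acute LPS (26.5% in either direction) and 3.8% in acute Poly(I:C). They were 3.27% in re-stimulated LPS and 4.79% in re-stimulated Poly(I:C). Comparisons with acute LPS carry the slide difference named above. Among interferons and their receptors, Ifnb1, the gene of interferon beta, rose by 10.33 after acute LPS (SE 0.50, adjusted p = 0.00028) and by 8.63 after acute Poly(I:C) (SE 0.33, adjusted p = 0.00109) from a naïve mean of 3.00, where it was well above background on 1 of 3 arrays, so that the sizes rest on a naïve level near background. It rose by 9.47 in re-stimulated Poly(I:C) (adjusted p = 0.00264) and by 5.88 in re-stimulated LPS (adjusted p = 0.00949), and by 6.86 after acute CpG (adjusted p = 0.0233). Ifnb1 thus rose in acute CpG without a call for any member. The list as a whole had 1 of 7 tested genes higher and 0 lower after acute Poly(I:C), and 3 higher and 2 lower after acute LPS.

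Among the factors that act on class I promoters, Irf1 and Irf7 moved in opposite ways on repeated exposure. Irf1, an interferon regulatory factor that acts on class I genes, had a mean of 12.96 in naïve, 16.44 in acute LPS, 13.23 in re-stimulated LPS, 16.85 in acute Poly(I:C) and 15.06 in re-stimulated Poly(I:C). It rose by 3.48 after acute LPS (adjusted p = 0.000399) and by 3.89 after acute Poly(I:C) (adjusted p = 0.00516), then fell by 3.21 (adjusted p = 0.000591) and by 1.79 (adjusted p = 0.0371) from acute to re-stimulated. Irf7, which amplifies type I interferon, had means of 13.31 and 15.53 in acute and re-stimulated LPS and of 13.63 and 15.68 with Poly(I:C), rises by 2.22 (adjusted p = 0.00282) and by 2.05 (adjusted p = 0.0424). Of the list, 6 of 16 genes rose and 3 fell after acute LPS, 4 of 17 rose after acute Poly(I:C), and 5 of 17 rose in re-stimulated Poly(I:C).

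The list of other class I genes held those of the H2-Q, H2-T and H2-M regions, H2-Bl and the class I-like Cd1d1, Cd1d2, Mr1, Hfe and Fcgrt. In re-stimulated Poly(I:C) 8 of 20 tested genes rose and 1 fell against naïve (median 1.33), and in re-stimulated LPS 7 of 20 rose (median 0.92), where acute LPS gave 5 of 20 and acute Poly(I:C) 2 of 19. In re-stimulated CpG 5 of 19 rose (median -0.27), against 6.65% of probes called higher. In re-stimulated Pam3CSK4 2 of 19 rose (median -0.31), against 5.36% of probes in either direction. Compared directly, 10 of 20 rose and 1 fell from acute to re-stimulated LPS (median 0.88), against 17.2% of all probes higher and 17% lower. With Poly(I:C), 0 rose and 1 fell in limma (median 1.04, with 18 of 20 at an unadjusted p under 0.05), against 4.93% of probes in either direction. The gene that fell in all 3 of these was Fcgrt, the neonatal Fc receptor, by 2.26 in re-stimulated Poly(I:C) against naïve (adjusted p = 0.0284). H2-Q8, a Qa-2 family gene, rose by 6.13 in re-stimulated Poly(I:C) (SE 0.59, adjusted p = 0.00782) and by 5.80 in re-stimulated LPS (SE 0.41, adjusted p = 0.0101). Its mean was also higher in re-stimulated CpG (13.46) and re-stimulated Pam3CSK4 (12.80) than in naïve BMDMs (10.06). H2-T10 rose by 2.56 after acute LPS (adjusted p = 0.0011), by 2.37 after acute Poly(I:C) (adjusted p = 0.00556) and by 3.56 in re-stimulated Poly(I:C) (adjusted p = 0.00665). Genes of this family are near copies of each other, and their probes may share signal.

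Of the 11 genes for the supply and trimming of peptides, 3 rose in re-stimulated Poly(I:C). These were Psme1 (1.68, SE 0.31, adjusted p = 0.0293) and Psme2 (1.65, adjusted p = 0.0246), the subunits of the PA28 proteasome activator, and Erap1 (1.32, adjusted p = 0.0282), which trims peptides in the endoplasmic reticulum. Acute Poly(I:C) raised 0 of these 11 in limma (3 at an unadjusted p under 0.05), with Psme2 1.15 higher (adjusted p = 0.0588). Of the chaperones and partners of the loading complex, 0 of 8 passed in re-stimulated Poly(I:C) in limma (1 at an unadjusted p under 0.05), with a median of -0.20 against 1.76 for the members. The tapasin relative Tapbpl was the 1 of the 8 with a higher mean, 2.49 higher but not past the threshold (adjusted p = 0.0568), and it rose by 1.79 after acute LPS (adjusted p = 0.0068).

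**Figure D4:**
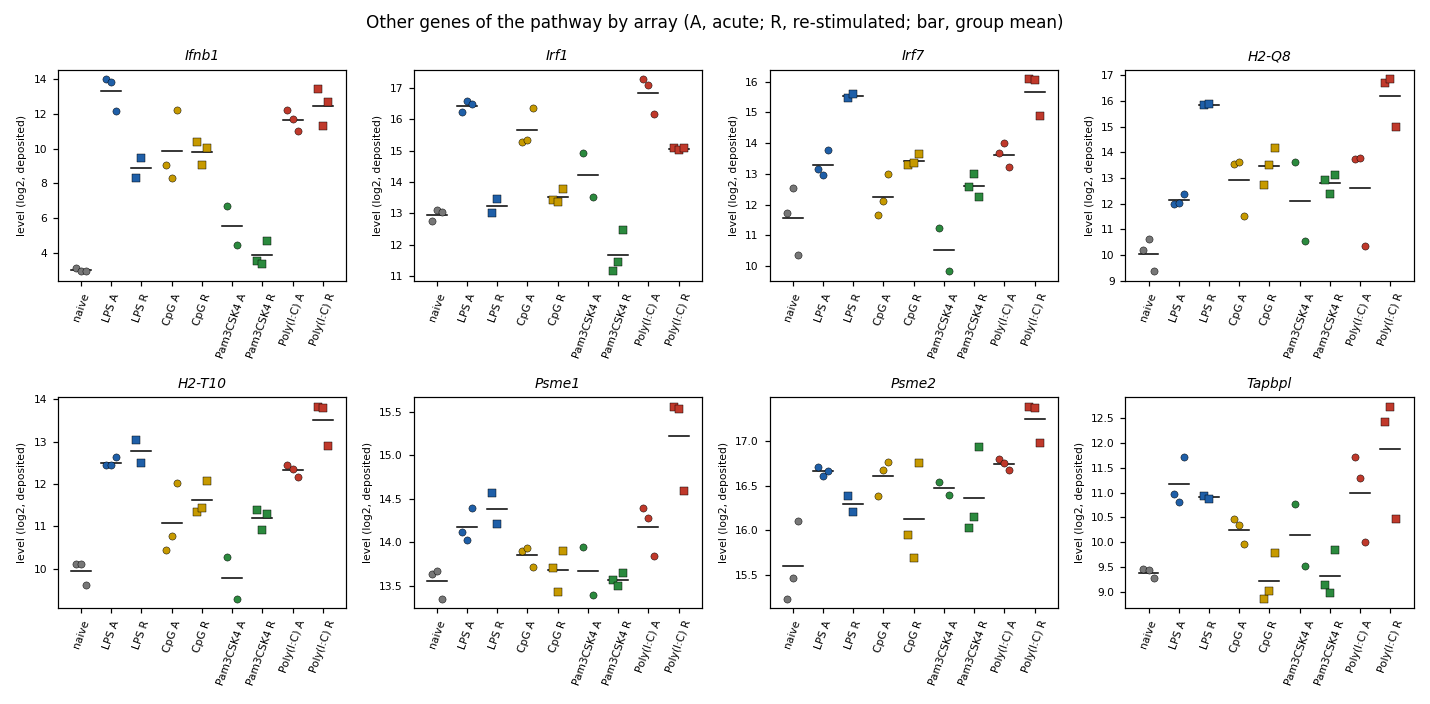
Log2 level of Ifnb1, Irf1, Irf7, H2-Q8, H2-T10, Psme1, Psme2 and Tapbpl on each array by condition; points are arrays and short lines group means. Irf1 is higher in acute than in re-stimulated LPS and Poly(I:C), Irf7 the other way round, and H2-Q8 is highest in the means of re-stimulated LPS and Poly(I:C).

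Among 20497 detected genes, those whose 9 group means followed the mean of the members most closely were Apol9a (r = 0.992), Apol9b (0.984), a transcript named ENSMUST00000099425 (0.984), Ube2l6 (0.982), the E2 enzyme of ISG15 conjugation, and BC048373 (0.974). Apol9a had a mean of 7.86 in naïve, 10.23 in acute LPS, 11.35 in re-stimulated LPS, 10.61 in acute and 13.09 in re-stimulated Poly(I:C). Nlrc5 alone was followed most closely by Pou3f1 (0.989), a transcribed region on its own chromosome (0.988), Sesn3 (0.985), Gm6907 (0.985) and Tor1aip1 (0.984). These r are across 9 group means and carry no test.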

How the data were processed

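Total RNA of BMDMs was hybridised to 1-colour Agilent arrays read with Feature Extraction 10.7.3.1. The authors deposited the scanner intensities of 27 arrays and a table of log2 values for 25 of them, after RMA background correction followed by quantile normalization. The deposited log2 values are the main values, and intensities served for background flags and alternatives. They were rebuilt for all 27 arrays, with a median absolute difference of 0.0355 from the deposited values (largest 1.08). Normalization sets each array to the same distribution, so a shift shared by all genes is removed.

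The 2 arrays with no deposited values (re-stimulated LPS replicate 3 and acute Pam3CSK4 replicate 2) entered no main comparison. Every column was mapped to a sample (0 left over). For each of 12 comparisons of 2 groups, limma 3.58.1 in R 4.3.3 was fitted to every probe that the scanner software marked well above background on 2 or more arrays in one of the groups, and p-values were adjusted over these probes (Benjamini-Hochberg). Genes were called at an adjusted p under 0.05 with at least 1.5-fold change (0.58 log2 units). The 5 differences between ligands were contrasts in 1 fit of 9 groups. Every p is two-sided, and the number of arrays limits the precision. The script was tested on simulated data.

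Same-numbered arrays on a shared slide deviated together in the 7 comparisons whose 3 pairs each correlated over 0.1 in their deviations (0.104 to 0.437 over these). The main fits had no block and so left this pairing out. The replicate block was fitted as an alternative, and its values are given where a call changed in a CpG or Poly(I:C) comparison. For the LPS comparisons only the genes whose call changed are named. In acute LPS against naïve, on different slides, the correlations were 0.0103 to 0.0413. Replicates come from separate cultures by the methods.

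Gene names and positions (mm9) are those of the array files, and the design file of the acute LPS arrays is an earlier one with other names for 6517 probes. Of 72 genes in 5 lists, 70 were on the array by name. Per list and comparison, counts and at most 4 genes with the largest changes are given. The members and lists were chosen with earlier results of these data known. Alternatives were other scaling, no detection filter, a replicate or slide block, all 27 arrays, the mean of a gene's probes, 1 fit of all groups and each array left out. Fits with replicates 1 and 2 only, and with naïve replicate 3 as the only naïve array, were chosen after seeing the data.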

Additional observations from a re-analysis of the deposited data

Results flagged for a closer look

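Differences between ligands passed the test for Nlrc5, Psmb9, Psmb8 and Tap1 after a single exposure. Poly(I:C) minus Pam3CSK4 was 2.67 for Nlrc5, 2.60 for Tap1, 1.83 for Psmb9 and 1.04 for Psmb8 in log2 units. Poly(I:C) minus CpG was 1.41 for Nlrc5 and 1.21 for Psmb9, and every acute Poly(I:C) array lay above every acute CpG array for both genes.

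Signal was also present on the 2 arrays that have no deposited normalized values, as rebuilt from their intensities. On re-stimulated LPS replicate 3, 9 of the 10 members lay above all naïve arrays, and 4 lay within the range of the other re-stimulated LPS arrays. H2-K1 was at 17.85 against 16.57 to 16.96 in naïve BMDMs, and Nlrc5, the exception, at 10.08 against 10.04 to 10.55. On acute Pam3CSK4 replicate 2, 3 members (H2-K1, H2-D1 and Psmb10) lay above all naïve arrays, while Tap1 at 4.71 and Nlrc5 at 7.87 lay below all of them. That array had 99.9% of probes well above background and 22.6% of its spots marked as non-uniform, and the LPS array had 92.4% of probes well above background. The share of all probes above every naïve array is not given for these 2 arrays, so the counts of members have no background.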

How the results depend on the processing

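No member's value with an unadjusted p under 0.05 changed sign under any alternative. The numbers of members called that moved by over 1.5 times, or from or to 0, were as follows. With 1 fit of all 9 groups, acute CpG against naïve gave 1 in place of 0 (2 with slide as a random block), re-stimulated against acute CpG 1 in place of 0 in both fits, re-stimulated LPS against naïve 6 in place of 2 in both, acute Poly(I:C) against naïve 7 in place of 4 in both, re-stimulated Pam3CSK4 against naïve 1 in place of 0 in both, and re-stimulated against acute Poly(I:C) 3 in place of 0 (4 with the slide). With slide as a random block, Poly(I:C) minus Pam3CSK4 after acute exposure gave 7 in place of 4, and re-stimulated against acute Pam3CSK4 1. With scanner-processed signal at the 75th percentile, acute LPS gave 7, acute CpG 2, acute Poly(I:C) 7, re-stimulated LPS 6 and re-stimulated Pam3CSK4 1 against naïve, and Poly(I:C) minus CpG 1 in place of 2. This signal also called more probes of all: 3508 against 1581 in the main fit for re-stimulated LPS, and 2454 against 1598 for acute CpG. The numbers were 2197 against 1713 for acute Poly(I:C) and 7971 against 7918 for acute LPS. With median scaling, acute LPS gave 2, re-stimulated LPS 1, re-stimulated against acute Poly(I:C) 1 and Poly(I:C) minus CpG 0; this scaling moved the median of all probes by -0.16 to 0.78, over 0.1 in 16 of 17 comparisons. With no detection filter, re-stimulated Poly(I:C) against naïve gave 3 in place of 8, acute Poly(I:C) 2, re-stimulated LPS 0 and re-stimulated CpG 0, with more probes tested. With all 27 arrays, re-stimulated LPS against naïve and Poly(I:C) minus CpG each gave 0. With the mean of a gene's probes, re-stimulated LPS against naïve gave 4, re-stimulated against acute Poly(I:C) 1 and Poly(I:C) minus CpG 1.

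With the replicate block, re-stimulated CpG against naïve gave 0 in place of 1 and re-stimulated against acute Poly(I:C) 3 in place of 0. In re-stimulated Poly(I:C) against naïve the block gave 7 of 8, and in acute Poly(I:C) 4, with Psmb9 in place of Tap2. Where numbers are not shown to pair arrays, the block gave 3 in place of 4 for acute LPS, with Tap2 lost. It gave 3 in place of 2 for re-stimulated LPS against naïve, with Tap1 gained, and 4 in place of 3 for re-stimulated against acute LPS, with H2-D1 gained. The block changed no other call. With replicates 1 and 2 only, re-stimulated CpG against naïve gave 0, LPS minus Poly(I:C) on re-stimulation 7, Poly(I:C) minus CpG 6 acutely and 4 in the change on re-stimulation, acute Poly(I:C) against naïve 7 and re-stimulated against acute Poly(I:C) 6. Over all probes, 6744 of 26135 were called in acute Poly(I:C) against naïve and 6566 of 25537 in re-stimulated against acute Poly(I:C). In re-stimulated CpG against naïve 6656 of 25851 were called. For the other counts with this subset the shares of all probes are not given, so they have no background. With naïve replicate 3 as the only naïve array, acute LPS gave 5.

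Leaving out each array in turn gave 0 to 1 members for re-stimulated CpG against naïve, 0 to 7 for re-stimulated LPS, 1 to 6 for acute Poly(I:C) and 0 to 8 for re-stimulated Poly(I:C) against naïve, 0 to 1 for re-stimulated against acute Poly(I:C), 0 to 3 for LPS minus Poly(I:C), 0 to 3 for Poly(I:C) minus CpG acutely and 0 to 2 in the change on re-stimulation. Re-stimulated CpG kept its call of Psmb8 without naïve replicate 3 and lost it without any other array. Where leaving out an array left 1 array in a group, it was assumed to vary like the other group. The cause of these changes was not tested, and the shares of all probes are not given beside these counts. Signal did not limit the members, since each main probe was well above background on all 25 arrays.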
